A study of Monodelphis domestica and Mus musculus with 2 samples.

Results

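Rasgrf2, Otof, Mdga1, Stard8 and Ccbe1 are genes used to mark the upper intratelencephalic neurons of the mouse cortex, the excitatory cells of layer 2/3 that project within the cortex. Their RNA was measured by Stereo-seq in the primary visual cortex (V1) of a gray short-tailed opossum and of a mouse. Stereo-seq captures polyadenylated RNA on a patterned chip under a tissue section and assigns each unique molecular identifier (UMI), a count of 1 captured molecule, to a segmented cell with a position. The genes were taken by symbol, with case ignored. All 5 were among the 61317 features of the mouse table, and 4 were among the 30613 features of the opossum table, which has no feature named MDGA1. The level in opossum of the gene that codes for MDGA1 is therefore not known from these data.

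The opossum group was 1 adult male Monodelphis domestica aged about 6 months, and the mouse group was 1 adult wild-type C57BL/6J male at about postnatal day 40. The labels name no treatment and no engineered allele for either animal. One 10 µm section held slices from both hemispheres of each animal, and the RNA integrity number of the opossum block was 7.1, below that of the mouse block. The V1 cells came from 3 regions in opossum and 4 in mouse, which are pieces of 1 animal and not replicates. With 1 animal per species there was no test, and no value was compared between the species by a test.

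Rasgrf2 codes for an exchange factor that activates the small GTPases Ras and Rac and is linked to calcium and NMDA receptor signalling. Otof codes for otoferlin, a ferlin family protein that senses calcium in vesicle release and is best known from the inner hair cell. Mdga1 codes for a cell surface protein that binds neuroligins and restrains the building of synapses. Stard8 codes for a GTPase-activating protein of the DLC family, which switches small GTPases off, and Ccbe1 codes for a secreted cofactor needed to activate the lymphatic growth factor VEGF-C. Layer 2/3 lies under the cell-poor layer 1 and above layer 4, where input from the thalamus arrives.

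In the mouse annotation of GRCm39 the genes lie on 5 chromosomes: Rasgrf2 (ENSMUSG00000021708) at chr13:92027891-92269375, Otof (ENSMUSG00000062372) at chr5:30524406-30619324 and Mdga1 (ENSMUSG00000043557) at chr17:30046923-30189061, all on the minus strand, Stard8 (ENSMUSG00000031216) at chrX:98046831-98118339 on the plus strand and Ccbe1 (ENSMUSG00000046318) at chr18:66178373-66435812 on the minus strand. The opossum features were ENSMODG00000020263 (RASGRF2), ENSMODG00000015788 (OTOF), ENSMODG00000011680 (STARD8) and ENSMODG00000020423 (CCBE1).

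Otof and Stard8 overlap no other gene of the mouse annotation. A noncoding gene of the opposite strand, Gm60550, overlaps the 3′ end of Rasgrf2 and had 28 UMIs in mouse V1 cells. Another, Gm15958, overlaps Ccbe1 and had 247 UMIs, more than the 144 of Ccbe1 itself. Whether the counting used strand is not given in the sources used here, so reads of the 2 strands cannot be told apart at these loci.

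The 250 bases before the canonical start of each mouse gene were read for short motifs on both strands, to see whether genes with a shared position in depth also share letters there. The E-box CAGCTG stood in 11.9% of the 21770 protein-coding genes and, of the 5, only before Stard8, 145 bases from the start. The stretch printed below lies at chrX:98086030-98086059 on the plus strand, with the motif in capitals. It is shown because Stard8 is, after Rasgrf2, the member with the most UMIs in mouse V1.
Stard8: ggtttttgcctcCAGCTGagtgacctgagg
The E-box CAGATG, found in 13.0% of genes, stood before Ccbe1 alone. No window held TAATTA (5.18% of genes), ATCGAT (0.781%) or TATAAA (11.9%). The windows of Rasgrf2, Otof and Mdga1 thus held none of the motifs searched, and the GC content of the Rasgrf2 window was 42.8% against a median of 53.2% over all genes.

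The opossum section gave 4806 V1 cells with 6933475 UMIs (median 1326 UMIs and 821.5 genes per cell), and the mouse section gave 9127 V1 cells with 12522687 UMIs (median 1305 UMIs and 848 genes). Region medians ran from 1048 to 1503 UMIs in opossum and from 1259 to 1343 in mouse. The 2 sections shared 0 cell barcodes. Subclass labels were those deposited by the authors, who transferred them from single-nucleus data by expression, so levels by subclass describe the labels and are no test of them. Of V1 cells, 5.04% in opossum and 16.1% in mouse had no subclass label. The authors also gave each cell a class (glutamatergic, GABAergic or non-neuronal), and class and subclass did not always match. The non-neuronal class held 677 opossum cells, whereas the oligodendrocyte and astrocyte subclasses held 565 and 495, so not all of these cells carried that class. Groups named below as a class and as subclasses are therefore from 2 labellings. Depth was taken from cell positions, as a share of the way from the upper edge (0) to the lower edge (1) of a region. The axis and its direction were set by where cells labelled IT_A or L2/3 and L6CT lay. Regions were up to 773 µm high in opossum and 774 µm in mouse. Cells labelled IT_A, the upper intratelencephalic subclass of opossum, had a median relative depth of 0.244, and IT_B cells, the opossum subclass most like mouse layer 4, one of 0.485. The medians of mouse L2/3 and L4 cells were 0.175 and 0.338. All levels below are UMIs of the gene per 10000 UMIs of all genes, and brackets give exact 95% Poisson intervals, or the exact conditional interval for a ratio, which cover counting error only. Levels were not compared between genes, since capture near the 3′ end was not corrected for length.

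Rasgrf2 was the one member measured well in both species. Opossum V1 held 1726 of its UMIs in 955 cells, a level of 2.49, and mouse V1 held 1325 in 949 cells, a level of 1.06. In opossum the level did not peak at the top. Over 10 equal steps of depth from the top it was 1.68, 2.24, 3.90, 4.69, 4.67, 4.46, 2.50, 1.01, 0.838 and 0.427. The plateau from 0.3 to 0.6 of the depth spanned the median depth of IT_B cells and lay below that of IT_A cells. In mouse the 10 levels were 2.28, 2.39, 1.73, 1.21, 0.741, 0.664, 0.659, 0.535, 0.423 and 0.446, highest in the 2 steps that surround the L2/3 median. The UMI-weighted mean relative depth was 0.420 (0.410 to 0.429) in opossum and 0.329 (0.314 to 0.343) in mouse.

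**Figure D1:**
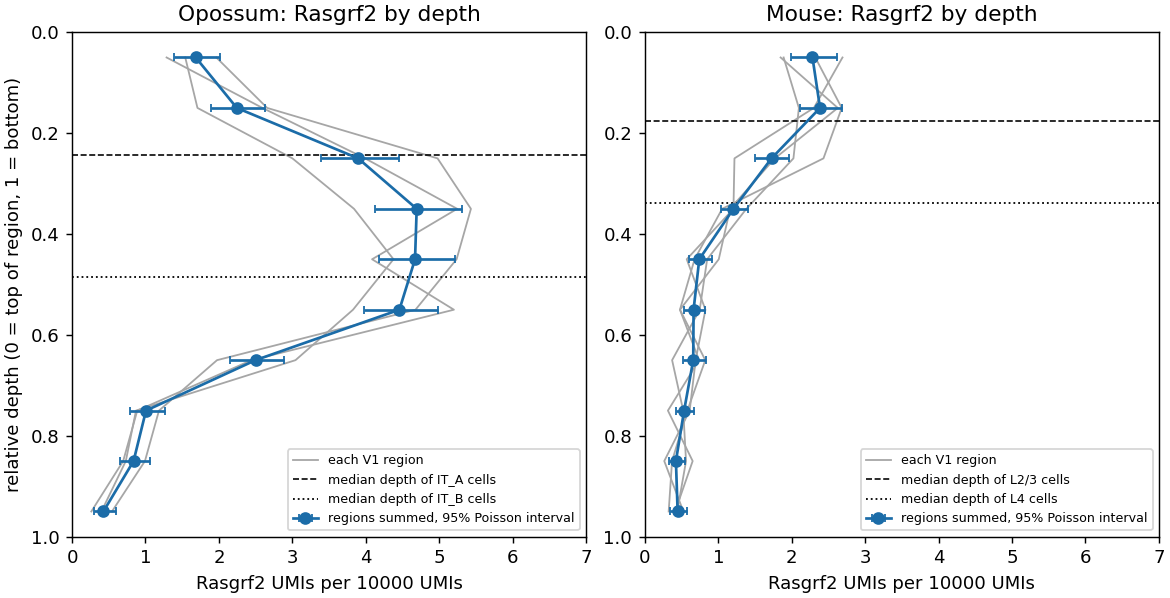
Rasgrf2 UMIs per 10000 UMIs (horizontal axis) against relative depth in 10 steps (vertical axis, 0 at the top) in V1 of opossum (left) and mouse (right). Points are all regions summed with 95% Poisson intervals, grey lines are single regions, and the dashed and dotted lines mark the median depths of the layer 2/3 and layer 4 subclasses. The opossum level reached 4.69 at mid depth, while the mouse level was highest, 2.39, in the second step.

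Each region was next cut into 3 depth zones of equal height. The opossum levels in regions 1, 2 and 3 were 2.35, 3.05 and 2.66 in the top zone, 3.92, 4.53 and 4.36 in the middle zone, and 0.689, 0.952 and 0.765 in the bottom zone. The 3 zones did not overlap over regions, and the order middle, top, bottom was the same in each region. Summed over regions, the top zone was 3.30-fold (2.81 to 3.88) above the bottom zone, and the middle zone was 1.59-fold (1.43 to 1.77) above the top zone. Of the 4 opossum members only Rasgrf2 reached the 100 UMIs set for this ratio. It passed 1.5-fold in both ratios, as did 8.35% of 8846 genes for top over bottom and 7.09% for middle over top. The middle over top ratio fell below 1.5-fold, to 1.36 (1.21 to 1.54), without the 50 cells with 5 or more of its UMIs, and to 1.16 (0.779 to 1.75) in non-neuronal cells alone. For top over bottom, 52 of the 8846 genes had a higher value.

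The mouse levels of Rasgrf2 in regions 1 to 4 were 1.92, 2.37, 1.95 and 1.87 in the top zone, 0.820, 0.628, 0.821 and 0.907 in the middle zone, and 0.475, 0.505, 0.496 and 0.498 in the bottom zone. Here too the zones did not overlap, with the top zone highest in each region. Top over bottom was 4.06-fold (3.49 to 4.74), and the middle zone was at 0.405 (0.355 to 0.461) of the top zone.

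The other mouse members were sparser. Otof had 110 UMIs in V1, Mdga1 121, Ccbe1 144 and Stard8 207, so a region's zone often rested on fewer than 20 UMIs. Stard8 stood at 0.340, 0.436, 0.436 and 0.308 in the top zone of regions 1 to 4, at 0.0254, 0.0802, 0.135 and 0.108 in the middle zone, and at 0.0515, 0.0758, 0.0528 and 0.117 in the bottom zone. The top zone was above both others in each region, and the sum was 5.20-fold (3.52 to 7.89) higher at the top than at the bottom. Otof stood at 0.202, 0.274, 0.109 and 0.178 in the top zone and at 0.0229, 0.0379, 0.0317 and 0.0293 in the bottom zone. Its ratio was 6.53-fold (3.59 to 12.9), and 1 of the 11402 genes tested had a higher one.

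Ccbe1 was uneven over the mouse regions. Its top zone levels were 0.221, 0.290, 0.0726 and 0.166, and its bottom zone levels were 0.103, 0.0632, 0.0845 and 0.0878. In region 3, with 17 UMIs in all, the bottom zone was the higher one, and in the other three the top zone was. Summed, top over bottom was 2.12-fold (1.42 to 3.21). For Mdga1 no difference between zones was larger than counting error. Its levels summed over regions were 0.106 (0.0759 to 0.144) at the top, 0.106 (0.0773 to 0.143) in the middle and 0.0798 (0.0559 to 0.111) at the bottom, and the ratio of 1.33 had an interval of 0.826 to 2.13. In all, 4 of the 5 mouse members passed 1.5-fold for top over bottom, where 6.29% of all genes did, and the median over all genes was 0.997.

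**Figure D2:**
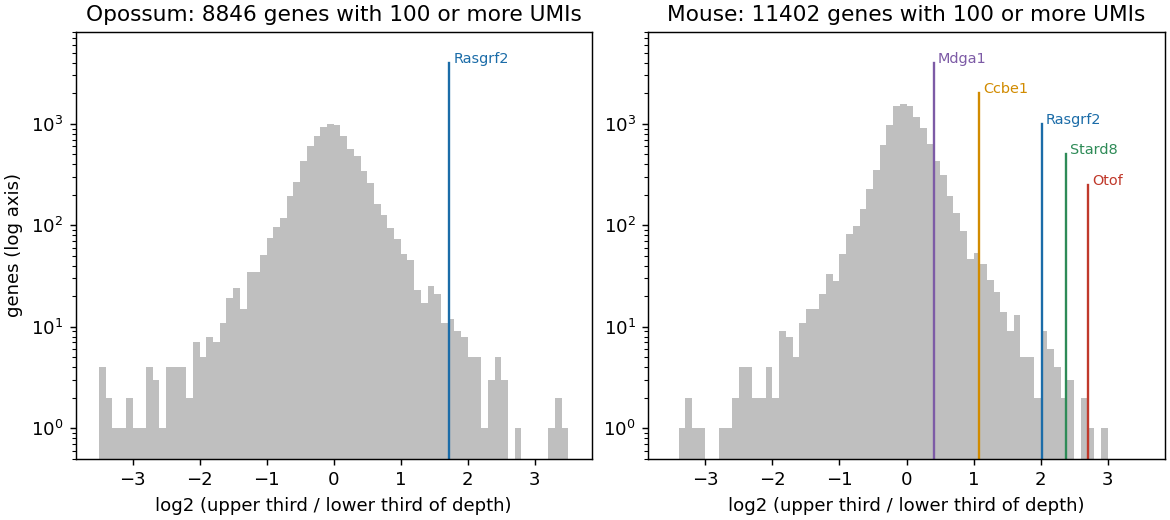
Number of genes (vertical log axis) by the log2 ratio of top zone over bottom zone (horizontal axis, values beyond 3.5 in either direction set at 3.5) in opossum and mouse V1, for genes with 100 or more UMIs. Coloured lines mark the members tested. Rasgrf2 is the single member tested in opossum, and in mouse Otof, Stard8, Rasgrf2 and Ccbe1 lie in the right tail while Mdga1, at a 1.33-fold ratio, lies in the bulk of genes.

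The sparse opossum members showed no excess at the top over the bottom beyond counting error. OTOF had 76 UMIs in opossum V1, STARD8 44 and CCBE1 22. OTOF stood at 0.147 (0.10 to 0.209) in the top zone, 0.0627 (0.0343 to 0.105) in the middle zone and 0.119 (0.0811 to 0.169) in the bottom zone. It was therefore as high at the bottom as at the top within counting error, with a top over bottom ratio of 1.23 (0.726 to 2.10), and lower in the middle zone than at the top, with a ratio of 0.426 (0.209 to 0.824). STARD8 stood at 0.0618, 0.0851 and 0.0462 in the 3 zones, with a top over bottom ratio of 1.34 (0.563 to 3.21), and CCBE1 at 0.0333, 0.0314 and 0.0308, with a ratio of 1.08 (0.334 to 3.41). The intervals for OTOF and STARD8 leave out the mouse values of 6.53 and 5.20, and that for CCBE1 holds the mouse value of 2.12. The zones do not match in layers, since the median depth of IT_B was 0.485 in opossum and that of L4 was 0.338 in mouse. The species were not tested against each other. The mean relative depths were 0.478 (0.405 to 0.551) for OTOF, 0.489 (0.423 to 0.555) for STARD8 and 0.463 (0.347 to 0.579) for CCBE1. A gene with equal levels at all depths would have the midpoint of this scale, which each interval held. These means thus do not place the genes at mid depth. The mouse means were 0.265 (0.222 to 0.308) for Otof, 0.276 (0.241 to 0.310) for Stard8, 0.395 (0.343 to 0.446) for Ccbe1 and 0.456 (0.401 to 0.512) for Mdga1.

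**Figure D3:**
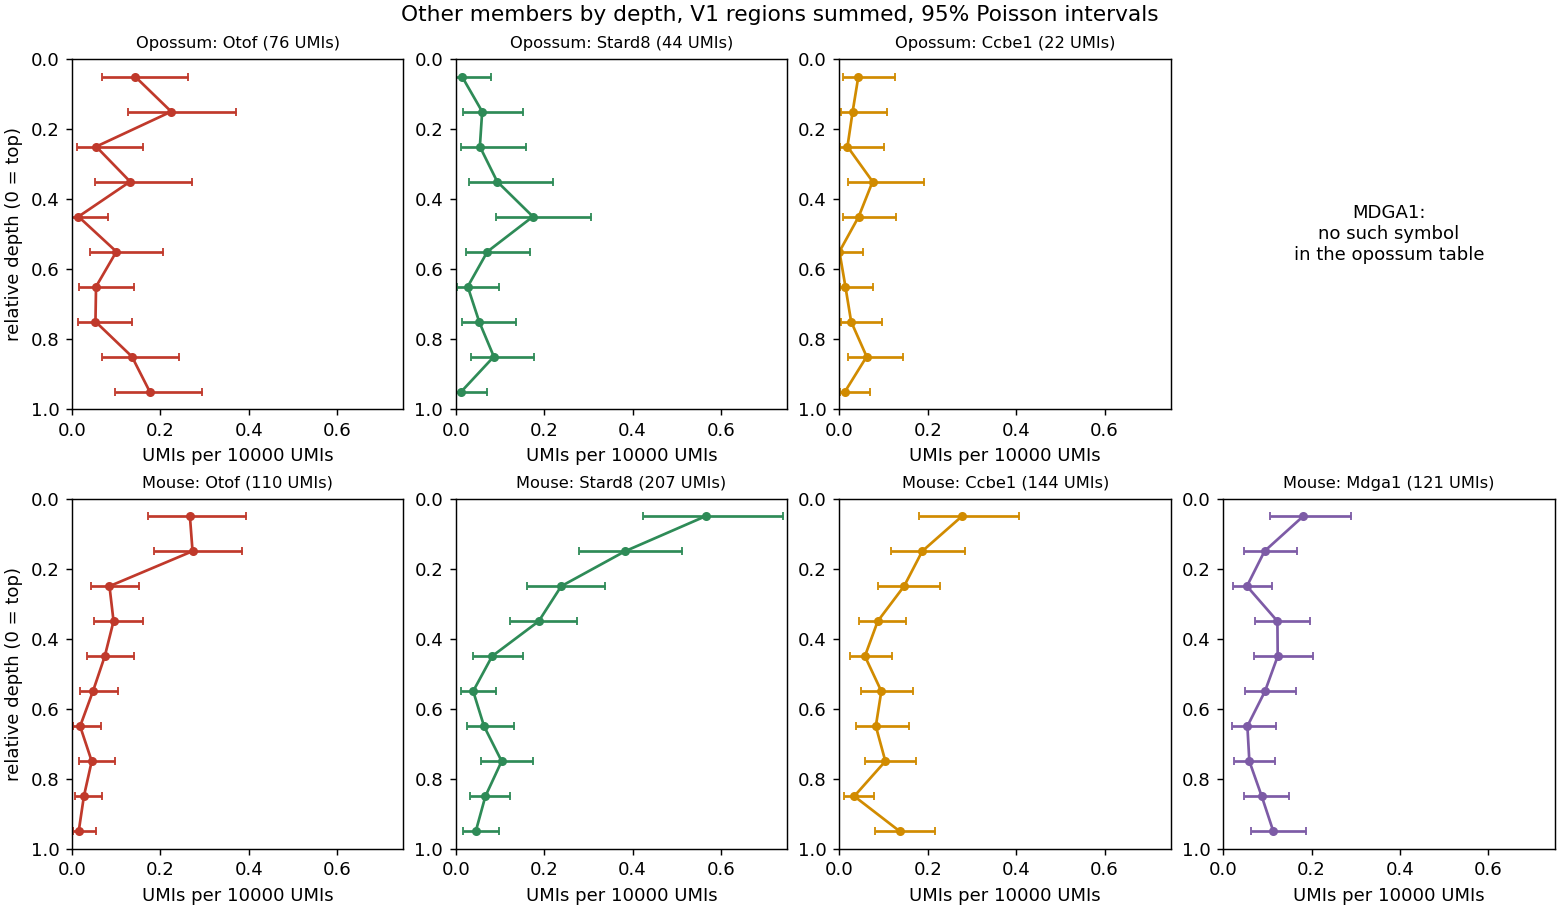
UMIs per 10000 UMIs (horizontal axis) of Otof, Stard8, Ccbe1 and Mdga1 by relative depth (vertical axis, 0 at the top) in opossum (upper row) and mouse (lower row), regions summed with 95% Poisson intervals. Mouse Stard8 and Otof are highest in the top steps, Mdga1 has no clear peak, and the 3 opossum genes stay low at each step.

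By subclass label, opossum Rasgrf2 was highest in IT_B and not in IT_A. IT_B cells stood at 8.16 (6.99 to 9.47, 126 cells), with 8.96, 6.79 and 10.1 in the 3 regions. Next came the Sst interneurons at 4.81 (3.96 to 5.78, 171 cells), OPC, the oligodendrocyte precursors, at 3.65 (2.71 to 4.81), the Pvalb interneurons at 3.30 (2.84 to 3.81) and IT_A at 3.19 (2.96 to 3.42, 1596 cells). The lowest IT_B region was above the highest Sst region, 5.48, whereas Sst, OPC, Pvalb and IT_A had ranges over regions or intervals that overlap with those of their neighbours in this order. IT_A cells were even over regions, at 2.92, 3.47 and 3.19. The deep excitatory subclasses were low: IT_C at 1.27 (0.945 to 1.66), L6CT, the corticothalamic cells of layer 6, at 0.702 (0.547 to 0.886), and L5PT, the pyramidal tract cells of layer 5, at 0.551 (0.294 to 0.943).

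How IT_A compared with other labels in opossum depended on the reference, and this is a description of the labels only. IT_A was 1.92-fold (1.69 to 2.20) above the other glutamatergic subclasses together, a ratio that passed 1.5-fold with 6.94% of all genes. Against the other intratelencephalic subclasses alone, IT_B, IT_C and IT_D, it was at 0.882 (0.759 to 1.03). Of these, IT_B at 8.16 stood above IT_A at 3.19, while IT_C at 1.27 (0.945 to 1.66) stood below it. IT_B was 2.56-fold (2.16 to 3.02) above IT_A, which passed 1.5-fold with 16.2% of genes. That ratio is over cells of unlike depth. Of the 126 IT_B cells 109 lay in the middle zone, at 8.94 (7.63 to 10.4) against 4.67 (4.18 to 5.21) in IT_A. The 17 IT_B cells of the top zone stood at 2.91 (1.26 to 5.73), and IT_A cells there at 2.77 (2.50 to 3.05). IT_A cells still held 43.0% of all Rasgrf2 UMIs in opossum V1, since they were the most numerous subclass, and IT_B cells held 10.0%.

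In mouse, Rasgrf2 was highest in L2/3 at 2.29 (2.07 to 2.52, 1438 cells), with 2.60, 2.14, 1.72 and 2.26 in the 4 regions. L4 stood at 1.17 (1.04 to 1.32), with 1.00, 1.12, 1.38 and 1.24, and the 2 ranges did not overlap. The Sst interneurons at 1.65 (1.18 to 2.24) and the Pvalb interneurons at 1.29 (0.896 to 1.79) lay between, with ranges over regions that overlap that of L2/3. L6CT was lowest at 0.405 (0.322 to 0.504). L2/3 was 2.92-fold (2.55 to 3.33) above the other glutamatergic subclasses and L4 stood at 0.513 (0.440 to 0.597) of L2/3. The interneurons that carry Sst thus ranked second in both species, but in mouse this rank is not resolved. Their interval there overlaps those of Pvalb and L4, and their regions ran from 0.491 to 1.99.

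**Figure D4:**
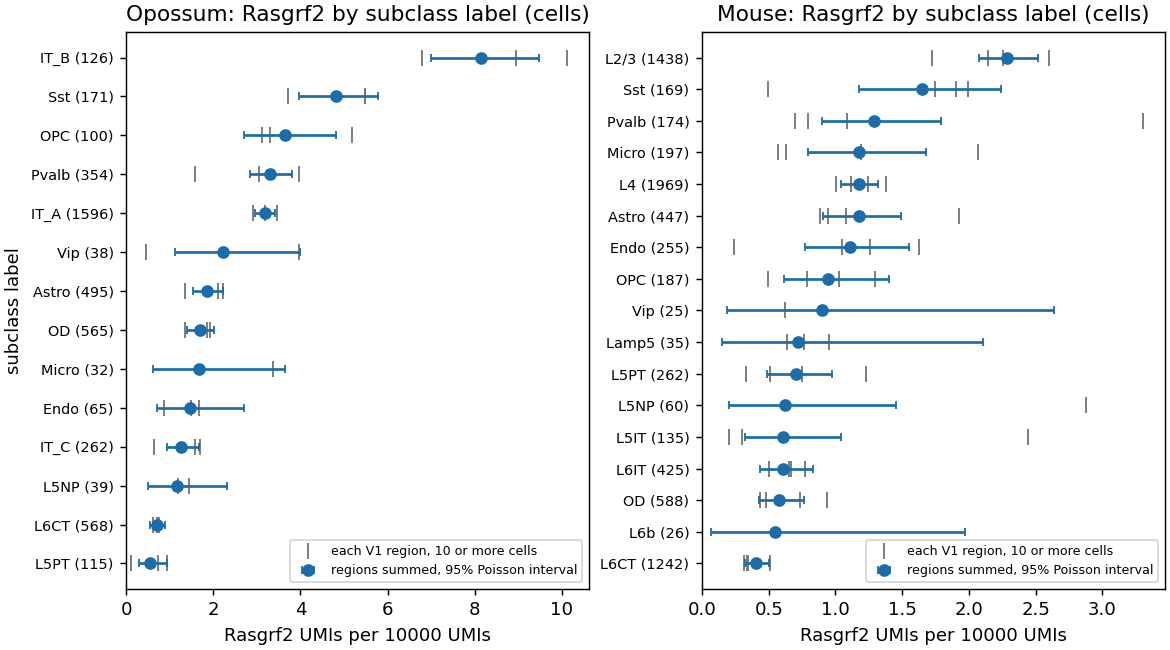
Rasgrf2 UMIs per 10000 UMIs (horizontal axis) by subclass label (vertical axis, number of cells in brackets) in opossum (left) and mouse (right) V1. Points are all regions summed with 95% Poisson intervals and ticks are single regions with 10 or more cells. IT_B at 8.16 leads in opossum, ahead of IT_A at 3.19, and L2/3 at 2.29 leads in mouse.

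Among mouse cells, Ccbe1, Stard8 and Otof were also tied to the L2/3 label. Ccbe1 stood at 0.304 (0.229 to 0.394) in L2/3 and 3.64-fold (2.44 to 5.44) above the other glutamatergic subclasses, with no gene of the 11402 higher. Its regions were 0.413, 0.357, 0.101 and 0.207 in L2/3. Stard8 stood at 0.428 (0.339 to 0.534), 3.61-fold (2.59 to 5.05) above the reference, and Otof at 0.228 (0.164 to 0.308), 3.41-fold (2.16 to 5.39) above. Mdga1 stood at 0.114 (0.0705 to 0.174) with a ratio of 1.42 (0.808 to 2.42). Together with Rasgrf2, 4 of 5 members passed 1.5-fold, against 3.98% of all genes. L2/3 cells held 38.2% of the Stard8 UMIs, 38.2% of those of Otof, 38.9% of those of Ccbe1 and 17.4% of those of Mdga1.

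Outside L2/3 these genes had other sites. Among subclasses with more than 2 of its UMIs, Mdga1 was highest in astrocytes at 0.307 (0.179 to 0.491, 17 UMIs), an interval that starts above the upper bound in L2/3, though the astrocytes of single regions ran from 0.0855 to 0.867. Ccbe1 stood at 0.303 (0.131 to 0.597, 8 UMIs) in OPC, level with L2/3, and at 0.229 (0.0920 to 0.472, 7 UMIs) in endothelial cells. Stard8 stood at 0.281 (0.103 to 0.613, 6 UMIs) in L5IT, the intratelencephalic cells of layer 5, an interval that overlaps that of L2/3. In opossum, 12 of the 22 CCBE1 UMIs were in Pvalb interneurons, at 0.216 (0.112 to 0.378), against 0.0258 (0.00946 to 0.0561) in IT_A. OTOF was highest among the opossum excitatory subclasses in L6CT at 0.200 (0.122 to 0.310), with 0.112 (0.0729 to 0.164) in IT_A. It had 0 UMIs in the 126 IT_B cells, for which the exact Poisson interval reaches up to 0.174. STARD8 in IT_A stood at 0.0515 (0.0266 to 0.0900) and was no higher there than in oligodendrocytes at 0.0879 (0.0323 to 0.191).

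The upper and the lower cells that carry the IT_A label differed too. Cut at the median depth of all IT_A cells, the upper and the lower group of region 1 stood at 2.14 and 3.69, those of region 2 at 2.73 and 4.37, and those of region 3 at 1.96 and 4.53. The lower group was the higher one in each of the 3 regions, by 1.73-, 1.60- and 2.31-fold, and the sum was 1.74-fold (1.5 to 2.02) higher, a ratio passed at 1.5-fold by 11.1% of all genes. The order was not the same at each depth, since the few IT_A cells of the bottom zone, described next, were the lowest. In mouse L2/3 the order of the groups was the opposite. The upper and the lower group stood at 3.17 and 2.01 in region 1, 2.83 and 1.79 in region 2, 2.13 and 1.27 in region 3, and 2.56 and 1.93 in region 4, with a summed ratio of lower over upper of 0.657 (0.538 to 0.80). With cells labelled in the first and strictest round of label transfer only, the mouse ratio was 0.857 (0.672 to 1.09), an interval that includes 1. Stard8 was also lower in the lower group, at 0.381 (0.224 to 0.629), and lower there in each of the 4 regions. For Otof, Mdga1 and Ccbe1 the intervals included 1. In all 2 of 5 members passed 1.5-fold lower, as did 10.8% of all genes.

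Rasgrf2 followed depth in cells of other labels as well. In opossum IT_A cells the 3 zones from the top were 2.77, 4.67 and 0.582, in GABAergic subclasses 3.17, 4.40 and 2.20, and in cells of the non-neuronal class 2.12, 2.46 and 0.784. In mouse L2/3 cells they were 2.73, 0.700 and 0.470, in L4 cells 1.38, 1.06 and 0.577, in GABAergic subclasses 1.97, 1.11 and 1.33, and in the non-neuronal class 1.84, 0.657 and 0.520. The 221 L2/3 cells of the middle zone thus had a level of Rasgrf2 (0.427 to 1.08) whose interval overlaps that of the L4 cells of the same zone (0.883 to 1.25), and the 95 IT_A cells of the bottom zone (0.266 to 1.10) overlapped the non-neuronal cells there (0.521 to 1.13). Non-neuronal cells had the order of zones of IT_A cells in opossum, though with a middle over top ratio of 1.16 (0.779 to 1.75), an interval that includes 1, and that of L2/3 and L4 cells in mouse, where GABAergic cells were higher in the bottom than in the middle zone within counting error. Oligodendrocyte markers were counted in neurons as well: the summed level of 5 such genes (4 in opossum) was 24.2 in IT_A and 16.4 in L2/3, against 99.3 and 71.9 in the oligodendrocytes themselves. The part of RNA from neighbouring cells in the levels by subclass was not tested.

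**Figure D5:**
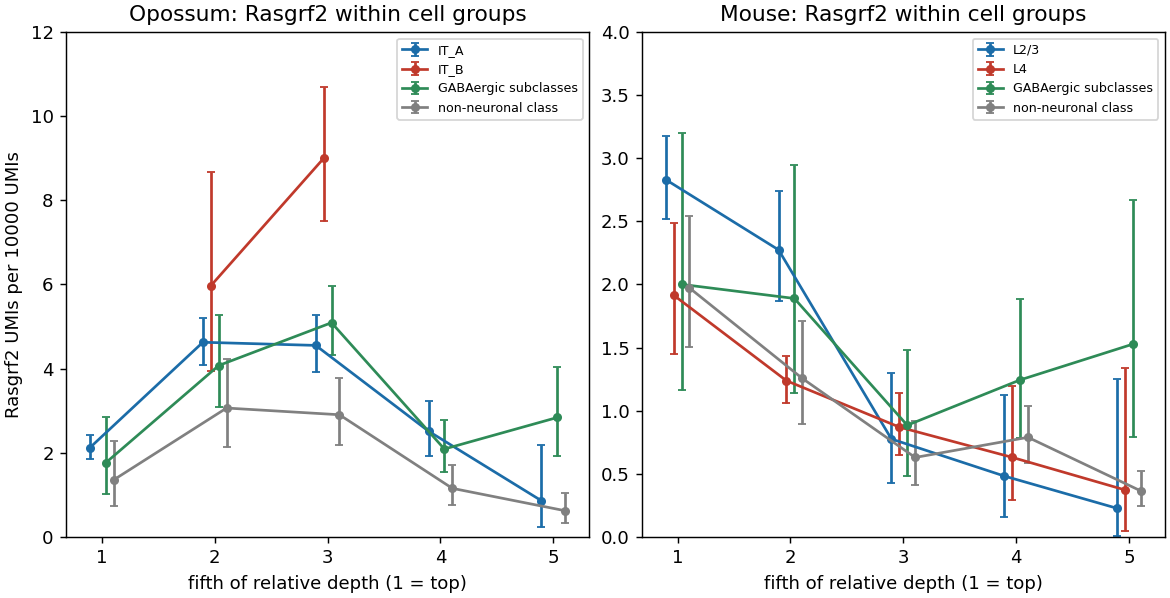
Rasgrf2 UMIs per 10000 UMIs (vertical axis) in 5 equal steps of relative depth (horizontal axis, 1 at the top) within cell groups of opossum (left) and mouse (right) V1, with 95% Poisson intervals; groups with fewer than 25 cells are not drawn. In opossum, IT_A, GABAergic and non-neuronal cells were lower in the top step than in step 3, IT_B cells are drawn in steps 2 and 3 only, and in mouse L2/3, L4 and non-neuronal cells were highest at the top.

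By share of single cells, opossum IT_B, IT_A and oligodendrocytes kept their order. Sst cells, at 35.1% (28.0 to 42.7), stood above IT_A as in level. Pvalb cells at 24.9% and OPC at 24.0% did not stand above IT_A, unlike in level. A Rasgrf2 UMI was seen in 42.1% of IT_B cells (33.3 to 51.2, exact Clopper-Pearson), 25.1% (23.0 to 27.3) of IT_A cells and 14.5% of oligodendrocytes, at median depths of 1603, 1365 and 1077 UMIs. After every cell was thinned to 300 UMIs the shares were 15.2%, 7.84% (6.55 to 9.29) and 5.31% (3.59 to 7.54), with 1, 52 and 19 shallower cells left out. The intervals of IT_A and oligodendrocytes then overlapped. In mouse the shares were 19.2% (17.2 to 21.3) of L2/3 cells and 6.29% of oligodendrocytes at medians of 1246.5 and 1367.5 UMIs, and 6.61% and 1.71% after thinning, with 16 and 4 cells left out. The share of L2/3 cells with a UMI was 4.24% for Stard8 against 0.850% of oligodendrocytes, 2.78% against 0.340% for Ccbe1, and 1.81% against 0.170% for Otof. Some small subclasses had shares no lower than L2/3. Stard8 was seen in 4.44% (1.65 to 9.42) of 135 L5IT cells and Ccbe1 in 3.74% (1.52 to 7.56) of 187 OPC. Otof was seen in 3.33% (0.406 to 11.5) of 60 L5NP cells, the near-projecting cells of layer 5. For Mdga1 it was 1.25% (0.744 to 1.97) against 1.19% (0.480 to 2.44), a difference within counting error. Opossum OTOF, at 1.19% of IT_A cells and 0.885% of oligodendrocytes, and STARD8, at 0.689% and 0.708%, were also alike within counting error. CCBE1 was seen in 5 IT_A cells, 0.313% (0.102 to 0.730), and in 0 of 565 oligodendrocytes, an interval of up to 0.651%.

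Cells with many Rasgrf2 UMIs were few. In opossum 50 of 4806 V1 cells held 5 or more, up to 19 in 1 cell, and in mouse 8 of 9127 did, up to 10. Of the 50 opossum cells, 35 lay in the middle zone, 12 in the top zone and 3 in the bottom zone. They were 23 IT_A, 8 IT_B, 8 Pvalb, 4 OPC and 3 Sst cells, 1 cell each of L6CT, oligodendrocytes and IT_C, and 1 cell with no label. As a share of the subclass, they made up 6.35% of IT_B and 1.44% of IT_A. Without these cells the middle over top ratio was 1.36 (1.21 to 1.54) and that of lower over upper IT_A cells 1.40 (1.18 to 1.66). Of the 8 mouse cells 7 lay in the top zone. Few cells held UMIs of more than 1 member: 0.752% of IT_A and 2.43% of L2/3 cells.

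Outside V1, Rasgrf2 was 2.16-fold (2.05 to 2.28) lower in opossum than within it, over 74531 cells, and 1.22-fold (1.15 to 1.29) lower in mouse, over 110882 cells. The level of mouse Stard8 in V1 was 1.27-fold (1.10 to 1.47) that of the rest of the section. The other members were lower in V1 than elsewhere or had an interval that includes 1: OTOF stood at 0.403 (0.316 to 0.506) of the rest in opossum, and in mouse Ccbe1 stood at 0.542 (0.456 to 0.641), Mdga1 at 0.593 (0.490 to 0.712) and Otof at 0.856 (0.698 to 1.04). The level of Ccbe1 and Mdga1 in mouse and of OTOF in opossum was thus higher outside V1 than in it.

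Relatives and partners were read for the same ratio of top over bottom zone. Rasgrf1, the closest relative of Rasgrf2, was at 1.48 (1.33 to 1.64) in opossum and 1.57 (1.42 to 1.74) in mouse, and like Rasgrf2 in opossum it was highest in the middle zone, at 4.26 in opossum and 2.74 in mouse. Of the GTPases and NMDA receptor subunits Hras, Nras, Rac1, Grin1 and Grin2b, none tested passed 1.5-fold in either direction. None of the DLC family relatives of Stard8 passed 1.5-fold higher at the top. Dlc1 was at 0.459 (0.281 to 0.729) in opossum and 0.564 (0.482 to 0.659) in mouse, and Stard13 at 0.471 (0.362 to 0.609) in opossum and 0.820 (0.542 to 1.23) in mouse. Among the partners of Mdga1, the neuroligin Nlgn1 passed 1.5-fold in mouse at 1.54 (1.44 to 1.64), where Mdga2 was at 1.08 (0.993 to 1.18), and in opossum Nlgn1 was at 1.17 (1.11 to 1.23). The ferlins and, apart from Adamts3 in mouse at 1.08 (0.680 to 1.71), the VEGF-C pathway genes had fewer than 100 UMIs.

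Other upper layer markers served as a check on depth, though not an independent one, since labels transferred by expression set the axis and direction of depth. Of Cux1, Cux2, Calb1, Pou3f2 and Lhx2, 4 of 5 passed 1.5-fold in opossum with a median of 2.83, and 5 of 5 in mouse with a median of 3.79. Layer 6 markers were 1.5-fold lower at the top in 4 of 4 tested in opossum, where 8.65% of all genes were, and in 5 of 5 in mouse, where 5.11% were. Of the layer 5 markers 3 of 4 were lower in opossum, but 1 of 4 in mouse, with a median of 1.00, so this list did not separate the zones in mouse.

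Over 10 depth steps in each region the genes most like Rasgrf2 differed by name between the species. In opossum, over 30 points, they were TRPM3 (Pearson r = 0.911), CPNE4 (0.902), TAFA2 (0.898), TNNT2 (0.888) and BRINP3 (0.867), and each was highest in the middle zone. In mouse, over 40 points, they included Camk2n1 (r = 0.924), Dact2 (0.890), Prkca (0.871) and Cux2 (0.856), and each of these was highest in the top zone. The genes most like mouse Stard8 included Calb1 (0.784), Dact2 (0.766), Prex1 (0.754) and Camk2n1 (0.753), of which Dact2 and Camk2n1 were also among those most like Rasgrf2. These correlations are over points that share cells, sections and depth of counting, and are descriptions only.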

How the data were processed

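The deposited matrices hold UMI counts per gene and segmented cell, not normalized. The authors made them with the Stereo-seq Analysis Workflow after manual alignment of the tissue image, with GRCm39 as the mouse genome and, for opossum, a version of ASM229v1 in which they had lengthened the 3′ ends of genes. V1 regions, the filter on cells and class and subclass labels were taken from the authors' deposited cell tables. UMIs of a gene were summed over cells and divided by the UMIs of all genes, per 10000, in Python 3.11.15 with numpy 2.4.6, scipy 1.17.1 and pandas 2.3.3. Depth was measured within the smallest rectangle around each region (shapely 2.1.2), with the side nearest IT_A or L2/3 cells as the top and that nearest L6CT cells as the bottom. Ratios were computed for all genes with 100 or more UMIs in V1 cells, and the code for ratios and depths was run on simulated Poisson counts. The intervals assume the same Poisson spread, so that run does not show how they cover counts clumped in single cells. Subclasses with fewer than 25 V1 cells were left out. Doublets were not called. The genes named are the 5 members, lists of their relatives and partners, markers of layers and cell types, and the 5 genes with the highest Pearson correlation of log2(UMIs per 10000 + 0.1) to a member with 200 or more UMIs; some genes of these lists are not reported here. The members and lists were chosen with earlier results of these data known. Alternatives were a filter at 200 genes and 300 UMIs, thinning to 300 UMIs per cell, means over cells, other depth cuts, glutamatergic cells only, first-round labels, other reference subclasses and leaving out each region. Non-neuronal cells only, leaving out cells with 5 or more UMIs, and all alternatives for the middle over top and the IT_B over IT_A ratios were chosen after seeing the data.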

Additional observations from a re-analysis of the deposited data

Results flagged for a closer look

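Rasgrf2 differed in opposite directions between the upper and the lower cells of the 2 upper excitatory labels, cut at their median depth. The lower over upper ratio was 1.74 in opossum IT_A cells, with the lower cells higher in 3 of 3 regions, and 0.657 in mouse L2/3 cells, with the lower cells lower in 4 of 4 regions. The mouse ratio was 0.857 (0.672 to 1.09) with first-round labels, an interval that includes 1, and the opossum ratio fell below 1.5-fold, to 1.40 (1.18 to 1.66), without cells with 5 or more UMIs. Within IT_A the level rose from 2.77 in the top zone to 4.67 in the middle zone and was 0.582 in the bottom zone, so the order of the groups does not hold over the whole depth. Each species is 1 animal, the regions are not replicates, and the difference between the species was not tested.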

How the results depend on the processing

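No paired analysis was possible because each species is 1 sample. For opossum Rasgrf2 the mean relative depth of 0.420 was 0.432 after thinning, 0.435 with raw UMIs, and 0.410 to 0.428 with a region left out. Top over bottom, 3.30, was 2.78 after thinning, 4.08 in glutamatergic cells, 1.89 with 2 depth zones and 2.71 in non-neuronal cells. Middle over top, 1.59, was 1.16 in non-neuronal cells and 1.36 without cells with 5 or more UMIs. IT_A over other glutamatergic cells, 1.92, was 1.68 after thinning, 4.28 with first-round labels and turned to 0.882 against other intratelencephalic cells. IT_B over IT_A, 2.56, was 1.97 with first-round labels and 2.31 to 3.15 with a region left out. Lower over upper IT_A cells, 1.74, was 1.40 without cells with 5 or more UMIs. For mouse Rasgrf2 the mean depth of 0.329 was 0.306 in glutamatergic cells, 0.350 with raw UMIs and 0.347 in non-neuronal cells. Top over bottom, 4.06, was 5.21 in glutamatergic cells, 3.02 with 2 depth zones and 5.24 with 4. L2/3 over other glutamatergic cells, 2.92, was 4.50 with first-round labels, 2.23 against other intratelencephalic cells and 2.48 to 3.19 with a region left out. Lower over upper L2/3 cells, 0.657, was 0.857 with first-round labels. Opossum OTOF in lower over upper IT_A cells, 0.402 from 26 UMIs, turned to 1.49 after thinning, and mouse Ccbe1 in L2/3 cells, 0.748, was 1.82 without region 1. Only 4 of 1544 IT_A cells held an OTOF UMI after thinning, so the value of 1.49 gives no direction. The causes were not tested. Of 331 values under alternatives 290 stayed within the counting interval of the main value, which is wide for the sparse members. For opossum Rasgrf2 36 values stayed within it, 14 left it and 1 turned to the other direction. For mouse Rasgrf2 32 stayed within it and 10 left it. The count of mouse members past 1.5-fold was 4 or 5. Counts of 22 to 207 UMIs limit the other members.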

Other observations

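Outside V1 the genes were unevenly spread over the section. In squares of 200 µm with 20000 or more UMIs, opossum OTOF had a median level of 0.146 UMIs per 10000 over 841 squares and reached 4.49 in 1 of them, against 0.110 in V1, and 478 squares were above the V1 level. Opossum Rasgrf2 reached 6.41 in such a square, and 70 of the 841 were above its V1 level of 2.49. Over 993 mouse squares the highest levels were 3.82 for Rasgrf2, 2.19 for Stard8, 2.18 for Ccbe1, 1.93 for Otof and 1.18 for Mdga1. The squares were not assigned to brain areas.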
